A study of Mus musculus with 10 samples.

Results

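The genes that buffer ATP in muscle were examined in differentiating mouse muscle cells in which *Fndc1*, a gene for a secreted fibronectin type III domain protein, was knocked down. The group held 8 genes that were taken by symbol out of the 55359 genes of the deposited table. They were the 4 creatine kinase genes (*Ckm*, *Ckb*, *Ckmt1* and *Ckmt2*), *Ak1* and *Ampd1* of the adenylate pathway, *Mb* for myoglobin and *Pygm* for muscle glycogen phosphorylase. The rule takes them by symbol and uses no measured value, although earlier results of these data were known when the group was put together. C2C12, an established mouse myoblast line, had been transfected with 100 nM of an siRNA against *Fndc1* (si-*Fndc1*, 5 libraries) or of a control siRNA (si-Control, 5 libraries) and kept in medium with 2% horse serum for 4 days of differentiation. The description of the series instead places the harvest 48 h after transfection. The methods give 1 siRNA sequence for *Fndc1*, so that effects of the siRNA on other transcripts cannot be told apart from those of the knockdown. The paper states in general that its experiments were repeated independently, but not whether these libraries came from separate cultures. The p-values therefore measure only the spread between these libraries.

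Muscle contraction uses ATP faster than mitochondria can remake it. Cytosolic creatine kinase bridges this gap by moving a phosphate from phosphocreatine to ADP, and mitochondrial creatine kinase recharges creatine where ATP is exported. Adenylate kinase joins spare ADP molecules into ATP and AMP, AMP deaminase then removes the AMP, and glycogen phosphorylase opens the sugar store, while myoglobin holds oxygen for respiration. *Ckm* encodes the muscle form of the cytosolic enzyme and *Ckb* the brain form, which is also present in myoblasts. *Ckmt2* encodes the mitochondrial form of striated muscle and *Ckmt1* the one of most other tissues.

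Libraries held 66771605 to 75995168 counted reads in the control group and 56332844 to 72839369 after the knockdown. The knocked-down transcript itself averaged 27.8 FPKM (fragments scaled to transcript length and library size) under the control siRNA, with an SD of 2.04 over n = 5, and fell to 20.9 FPKM, with an SD of 1.70 over n = 5, under si-*Fndc1*, with no overlap between the groups. On the log2 scale *Fndc1* changed by -0.40 with a standard error of 0.07 (edgeR quasi-likelihood, adjusted p = 0.000934), and an offset for GC content and transcript length moved it to -0.06 (adjusted p = 0.317). All 16 myotube markers were tested, of which 3 were higher, 3 lower and 10 not called, a share near the 34.4% called over all tested genes. The summed levels of the 16 were 8839 to 9279 FPKM in si-Control and 9171 to 10047 FPKM in si-*Fndc1*. The 4 most abundant were *Mylpf* (1971 and 2619 FPKM in si-Control and si-*Fndc1*), *Acta1* (1898 and 1979), *Tnnc1* (1425 and 1494) and *Des* (632 and 609), and of these *Mylpf* alone was called, at a log2 fold change of 0.42 (adjusted p = 4.96e-05) that quantile normalization took to 0.12 (limma, adjusted p = 0.0578). *Des*, at -0.04 (adjusted p = 0.395), was called lower after quantile normalization (-0.28, limma, adjusted p = 0.00264) and higher with the offset (0.10, adjusted p = 0.0393). Of 14 hepatocyte markers, 12 were tested and all 12 were called higher in si-*Fndc1*, beside 17.3% called higher over all tested genes. Except for *Alb*, these 12 averaged in si-Control less than the 0.5 FPKM required for testing and passed only through si-*Fndc1*. The filter therefore favored this direction in the count of tested markers. The markers below the filter were also higher in si-*Fndc1* without overlap. *Tat* was at 0.0304 and 0.641 FPKM and *Cps1* at 0.0174 and 0.455 FPKM in si-Control and si-*Fndc1*. The summed level of the 14 markers was 0.193 to 6.18 FPKM in si-Control and 46.9 to 172 FPKM in si-*Fndc1*. None of the 14 was without counts in every library. The part of these liver transcripts in the results below was not tested. In bulk RNA, a change in the number of cells of one kind and a change in RNA per cell cannot be told apart.

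The creatine kinase genes for the cytosolic enzymes were both higher after the knockdown. *Ckm* rose 1.30-fold and *Ckb* 1.20-fold in mean FPKM, and neither gene had a si-*Fndc1* library inside the si-Control range. *Ak1*, the main cytosolic adenylate kinase of muscle, fell to 0.859 of its si-Control level, again without overlap. *Mb* and *Pygm* did not pass the test, and *Ckmt1*, *Ckmt2* and *Ampd1* lay below the level of 0.5 mean FPKM that was required for testing. Of the 5 genes tested, 2 were thus called higher, 1 lower and 2 not called at an adjusted p under 0.05. The background was high, since 34.4% of all 13548 tested genes were called (17.3% higher and 17.2% lower) and 25.1% had groups that did not overlap in CPM, the count scaled to library size. The median log2 fold change of the 5 was 0.15, against 0.00 over all tested genes.

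**Figure D1:**
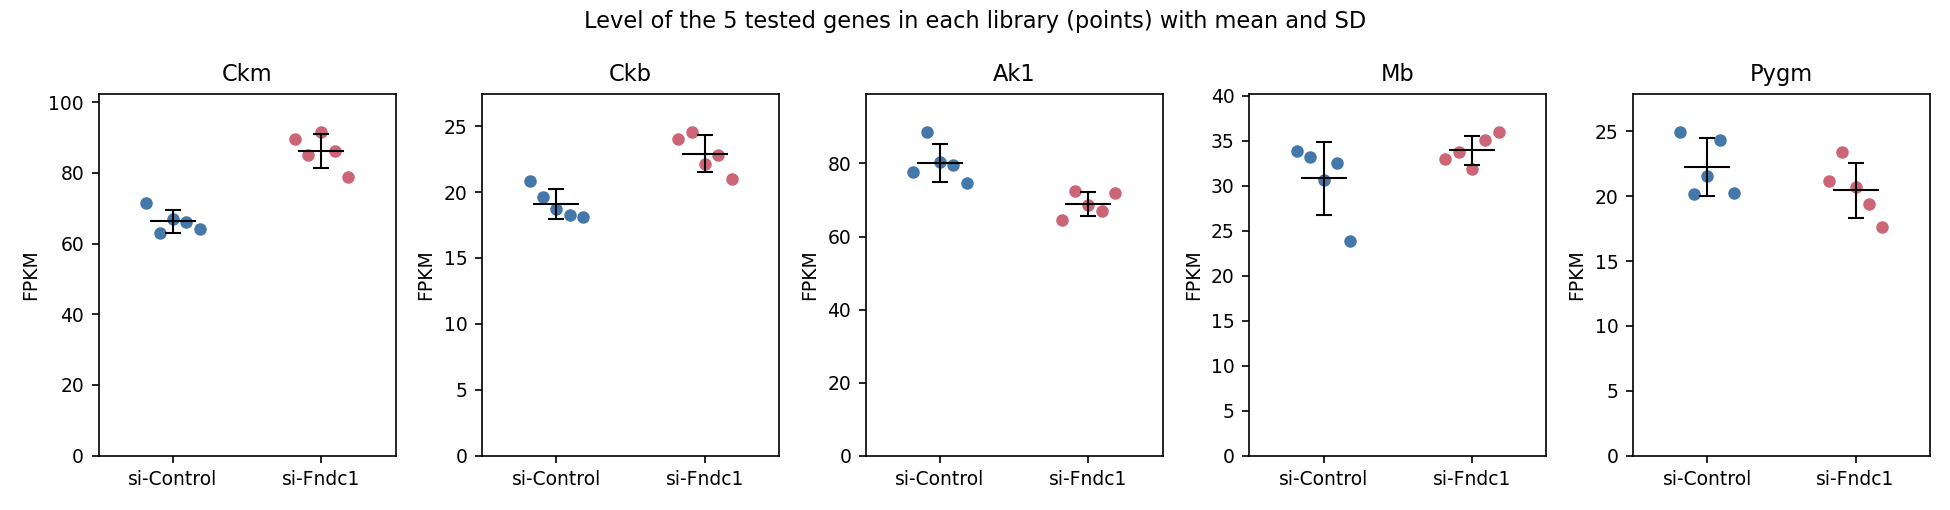
Level in FPKM (vertical axes, from 0) of the 5 tested genes in each of the 5 si-Control and 5 si-Fndc1 libraries (points), with the mean (long bar) and SD (capped line). The groups are apart for Ckm, Ckb and Ak1, with Ckm at 63.0 to 71.5 FPKM in si-Control and 78.8 to 91.5 FPKM in si-Fndc1, and they overlap for Mb and Pygm.

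*Ckm* (ENSMUSG00000030399) lies on the plus strand of chromosome 7 at 19138701 to 19156766 in the deposited table, which names no build; the submitters' processing notes name GRCm39. In si-Control replicates 1 to 5 it measured 71.5, 63.0, 66.9, 66.0 and 64.2 FPKM, and in si-*Fndc1* replicates 1 to 5 it measured 89.6, 85.0, 91.5, 86.1 and 78.8 FPKM. The lowest si-*Fndc1* library was above the highest si-Control library. The means were 66.3 ± 3.29 and 86.2 ± 4.88 FPKM (SD, n = 5 each). The fitted log2 fold change of *Ckm* reached 0.39, with a standard error of 0.05 and an adjusted p of 0.000201, and a two-sided exact permutation test of the levels gave p = 0.00794, the smallest that 5 libraries against 5 can give. Of all tested genes, 16.9% had a larger absolute log2 fold change than *Ckm* and 4.23% a smaller p.

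*Ckb* (ENSMUSG00000001270), at 111635795 to 111638772 on the minus strand of chromosome 12, ran lower than *Ckm* throughout. Its level was 20.8, 19.6, 18.7, 18.3 and 18.1 FPKM in si-Control replicates 1 to 5 and 24.0, 24.5, 22.2, 22.8 and 21.0 FPKM in si-*Fndc1* replicates 1 to 5. All 5 si-*Fndc1* libraries were higher than all 5 si-Control libraries, although the nearest of them, at 20.8 and 21.0 FPKM, almost met. The means were 19.1 ± 1.13 and 22.9 ± 1.41 FPKM (SD, n = 5 each), or 0.27 on the log2 scale (SE 0.05, adjusted p = 0.00326; two-sided exact permutation p = 0.00794). Its annotated pseudogene copies *Ckb-ps1* and *Ckb-ps2* had 0 counts. Because *Ckb* is abundant in brain, markers of that tissue were read beside it, and *Snap25* and *Rbfox3* were at 0 counts in all 10 libraries. The summed level of the 8 brain markers was 7.06 to 7.82 FPKM in si-Control and 7.05 to 7.84 FPKM in si-*Fndc1*, nearly all of it from *Syn1*.

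*Ckm* and *Ckb* are GC-rich, with 60.1% and 59.9% GC in their transcripts, and 5.01% and 5.53% of the tested genes with a known GC content exceeded them. Across the 11185 tested genes with a known GC content and length, which are not independent replicates, the log2 fold change had a Spearman correlation of -0.53 with GC content, so that GC-rich genes tended to be lower in si-*Fndc1*. Both creatine kinase genes ran against this trend. With an offset for GC content and transcript length, *Ckm* moved to 0.58 (standard error 0.05, adjusted p = 4.08e-05) and *Ckb* to 0.46 (standard error 0.06, adjusted p = 0.000259), while in the same genes without the offset they stood at 0.39 and 0.28. With this offset 23.4% of the tested genes were called.

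The upstream sequences of these genes are shown because the cytosolic pair rose together. In the RefSeq table of promoters (build GRCm38.p6, 250 bases before to 50 bases after each annotated start), 7 of the 8 genes had an entry and *Ampd1* had none. The E-box CAGCTG, a form of the CANNTG element that muscle regulatory factors of the MyoD family bind, was searched; it reads the same on both strands. Capitals mark CAGCTG, and both sequences run over the 250 bases that precede the start.

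Ckm, chr7:19410844-19411093, plus strand: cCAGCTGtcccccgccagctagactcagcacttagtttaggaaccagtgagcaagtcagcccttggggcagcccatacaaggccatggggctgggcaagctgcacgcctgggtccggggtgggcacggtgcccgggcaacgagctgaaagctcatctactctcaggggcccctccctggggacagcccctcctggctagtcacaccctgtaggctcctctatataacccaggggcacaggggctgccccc
Ckb, chr12:111672339-111672588, minus strand: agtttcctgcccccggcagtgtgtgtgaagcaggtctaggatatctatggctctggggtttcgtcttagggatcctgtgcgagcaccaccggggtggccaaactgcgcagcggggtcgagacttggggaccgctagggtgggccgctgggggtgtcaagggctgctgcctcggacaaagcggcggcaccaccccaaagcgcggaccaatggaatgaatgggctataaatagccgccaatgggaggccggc

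The *Ckm* window held 1 CAGCTG, at the far upstream end of the stretch, with its first base at -249 (counted from the start at 0). The *Ckb* window held no CAGCTG, and it held TATAAA with the first base at -28. CAGCTG occurred in 16.3% of all 32851 promoters and TATAAA, on either strand, in 13.6%. Among the 13 promoters of the 7 genes, 8 held CAGCTG and belonged to 6 genes. Over all 27025 genes with a promoter entry, 18.3% held CAGCTG in any promoter. Promoters of one gene can overlap, and a match of letters does not show binding.

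The mitochondrial creatine kinases were close to the limit of detection. *Ckmt1* (ENSMUSG00000000308, chromosome 2, 121188195 to 121194218, plus strand) had 0 counts in all 10 libraries, which allows up to 3 counts in a library, or 0.0395 to 0.0533 CPM, by counting error. *Ckmt2* (ENSMUSG00000021622, chromosome 13, 92001506 to 92025004, minus strand) had 8, 15, 16, 8 and 12 counts in si-Control replicates 1 to 5 and 0, 21, 0, 0 and 4 counts in si-*Fndc1* replicates 1 to 5. All si-Control libraries had counts, whereas 3 of the 5 si-*Fndc1* libraries had none and replicate 2 had the most of all 10. A two-sided exact permutation test of its level gave p = 0.175, and without a filter on low genes the fit gave -1.18 on the log2 scale with a standard error of 1.17 (adjusted p = 0.553). No difference in *Ckmt2* was detectable at this depth.

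*Ampd1* (ENSMUSG00000070385), which encodes the muscle form of AMP deaminase, lies on the plus strand of chromosome 3 at 102981330 to 103007036 in the deposited table and was also scarce. It had 107, 67, 87, 88 and 110 counts in si-Control replicates 1 to 5 and 97, 103, 106, 102 and 99 counts in si-*Fndc1* replicates 1 to 5. The raw counts of si-*Fndc1* lay inside the si-Control range, and per length and library size the groups overlapped too, with si-*Fndc1* replicate 5 the highest of the 10 at 0.438 FPKM against at most 0.413 FPKM in si-Control. Its level was 0.321 ± 0.068 and 0.372 ± 0.039 FPKM (SD, n = 5 each; two-sided exact permutation p = 0.214).

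**Figure D2:**
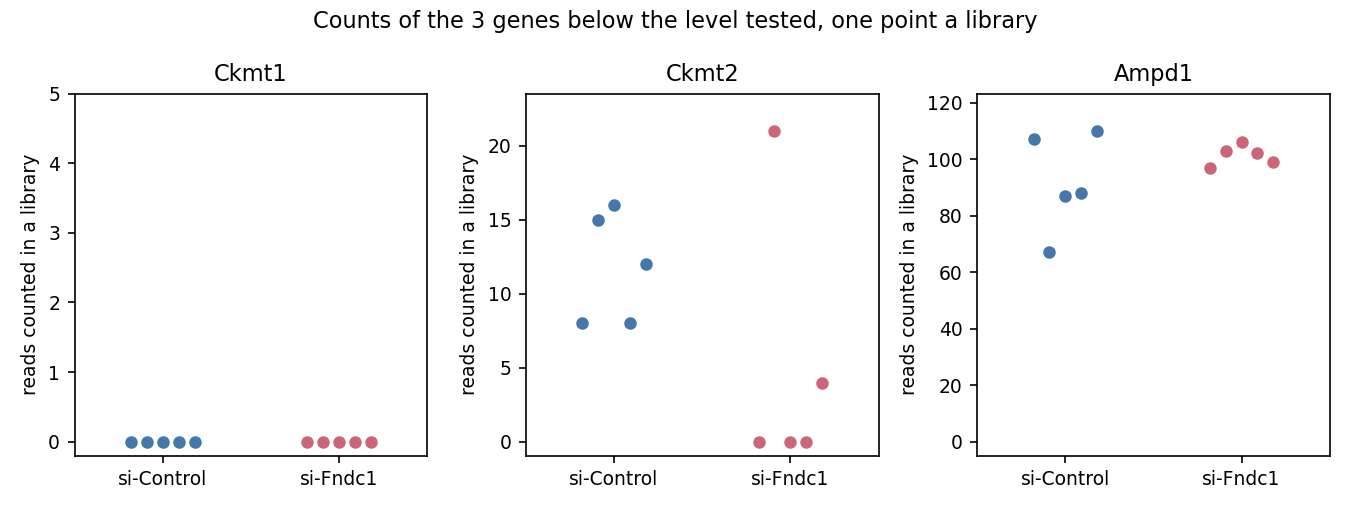
Reads counted per library (vertical axes) for Ckmt1, Ckmt2 and Ampd1 in the 5 si-Control and 5 si-Fndc1 libraries, one point a library. Ckmt1 is at 0 in all 10 libraries, Ckmt2 is at 0 in 3 si-Fndc1 libraries and reaches 21 in one, and Ampd1 lies between 67 and 110.

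Within the family the makeup moved little and the sum moved more. The 4 creatine kinase genes together summed to 85.5 ± 4.09 FPKM in si-Control and 109 ± 5.62 FPKM in si-*Fndc1* (SD, n = 5 each), or 1.28-fold higher with no overlap (two-sided exact permutation p = 0.00794; 0.0238 after Benjamini-Hochberg adjustment over this sum and the 2 shares that follow). Nearly all of this sum was *Ckm* and *Ckb*, which each separated the groups, so its separation and p-value followed from theirs. *Ckm* made up 77.6 ± 0.838% (SD, n = 5) of the summed FPKM of *Ckm* and *Ckb* in si-Control and 79.0 ± 1.03% (SD, n = 5) in si-*Fndc1*, and the ranges of 76.3% to 78.3% and 77.6% to 80.5% overlapped. The difference of 1.36 percentage points had a two-sided exact permutation p of 0.0317 (adjusted p = 0.0476). It was lost (exact p = 0.0635) when si-Control replicate 1 or 2 or si-*Fndc1* replicate 1, 3, 4 or 5 was left out, at differences from 0.982 to 1.39 points. The mitochondrial genes made up 0.112 ± 0.040% (SD, n = 5) and 0.0391 ± 0.067% (SD, n = 5) of the family in si-Control and si-*Fndc1* (exact permutation p = 0.0873). Without si-*Fndc1* replicate 2 the difference was -0.102 points with exact p = 0.0159, the smallest that 5 libraries against 4 can give. Leaving out any other library gave an exact p of 0.0794 to 0.159. All of this share came from the few counts of *Ckmt2*.

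*Ak1* (ENSMUSG00000026817) lies on the plus strand of chromosome 2 at 32511770 to 32525070 in the deposited table. It measured 77.6, 88.5, 80.5, 79.7 and 74.7 FPKM in si-Control replicates 1 to 5 and 64.4, 72.5, 68.8, 67.1 and 71.9 FPKM in si-*Fndc1* replicates 1 to 5. Every si-*Fndc1* library was below every si-Control library. The means were 80.2 ± 5.16 and 68.9 ± 3.37 FPKM (SD, n = 5 each), or -0.21 on the log2 scale (SE 0.05, adjusted p = 0.0071; two-sided exact permutation p = 0.00794).

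*Ckm* and *Ak1* were the most abundant of the 8 genes and changed places. In all 5 si-Control libraries *Ak1* was above *Ckm*, and in all 5 si-*Fndc1* libraries *Ckm* was above *Ak1*. The log2 ratio of *Ckm* to *Ak1* in FPKM ran from -0.49 to -0.12 in si-Control and from 0.13 to 0.48 in si-*Fndc1*, with means of -0.27 and 0.32. This ratio was chosen after the levels had been seen and was given no test. The full order of levels per length was *Ak1*, *Ckm*, *Mb*, *Pygm* and *Ckb* in si-Control, in which the ranges of *Mb* and *Pygm* and those of *Pygm* and *Ckb* overlapped. In si-*Fndc1* it was *Ckm*, *Ak1*, *Mb*, *Ckb* and *Pygm*, in which the ranges of *Ckb* and *Pygm* overlapped. *Ckb* and *Pygm* also changed places, with *Pygm* above *Ckb* in 5 of 5 si-Control libraries and below it in 5 of 5 si-*Fndc1* libraries. The mean log2 ratio of *Ckb* to *Pygm* went from -0.22 to 0.17, likewise without a test.

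**Figure D3:**
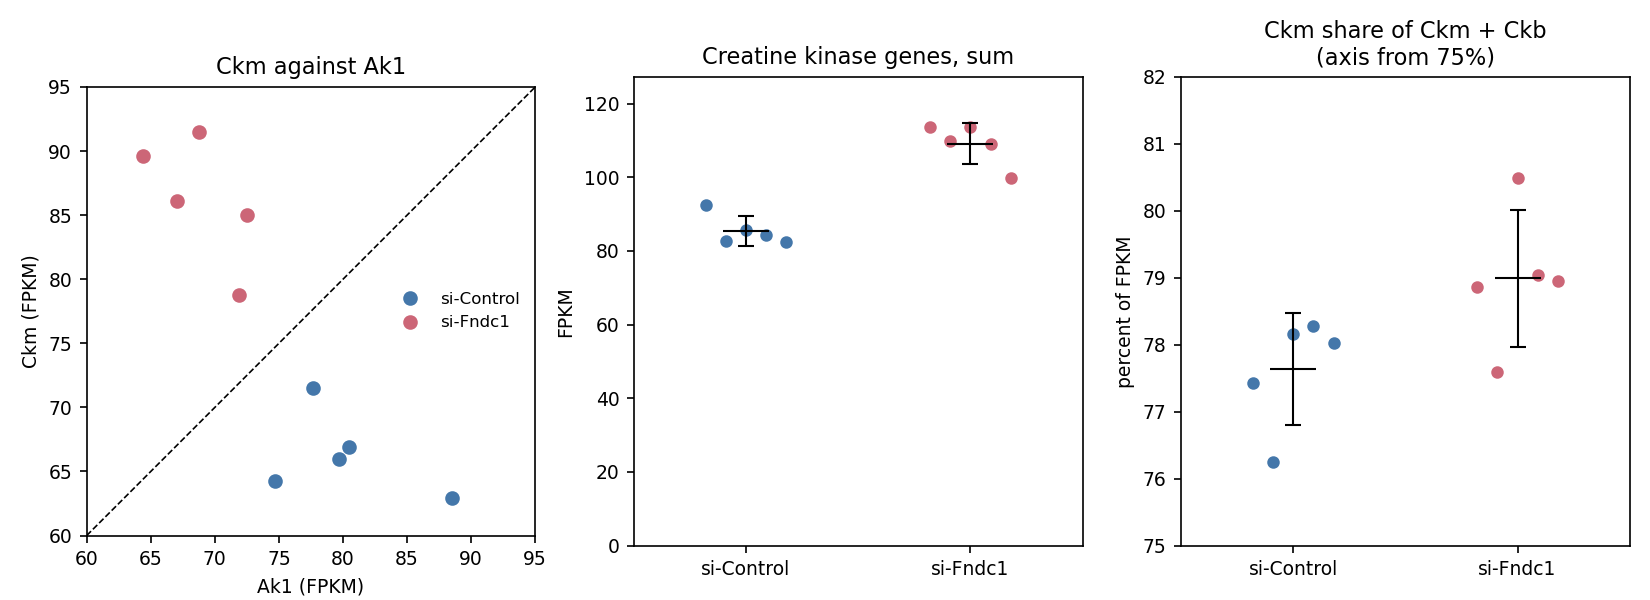
Left, Ckm against Ak1 in FPKM, one point a library, with a dashed line of equal levels: the 5 si-Control libraries are below the line and the 5 si-Fndc1 libraries above it. Middle, summed FPKM of the 4 creatine kinase genes, with the si-Control libraries between 82.4 and 92.4 and the si-Fndc1 libraries between 99.9 and 114. Right, share of Ckm in Ckm plus Ckb on an axis that starts at 75%, with ranges that overlap. Bars in the middle and right panels are mean and SD.

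*Mb* (ENSMUSG00000018893, chromosome 15, 76899687 to 76934870, minus strand) measured 33.9, 33.3, 30.6, 32.5 and 23.8 FPKM in si-Control replicates 1 to 5 and 32.9, 33.8, 31.9, 35.2 and 36.0 FPKM in si-*Fndc1* replicates 1 to 5. The groups overlapped, and si-Control replicate 5 was the lowest of the 10. The means were 30.8 ± 4.11 and 33.9 ± 1.65 FPKM (SD, n = 5 each). The log2 fold change of 0.15 had a 95% interval from -0.02 to 0.31 (adjusted p = 0.217), and without si-Control replicate 5 it was 0.07. *Apol6* overlaps *Mb* on the opposite strand, with a mean of 154 counts against 3764, and use of the strand in counting was not stated. Of the 2 other globin genes listed, neither reached the level tested, and *Cygb*, for cytoglobin, had 0 counts in all 10 libraries.

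*Pygm* (ENSMUSG00000032648) lies on the plus strand of chromosome 19 at 6434429 to 6448489 in the deposited table. Its level was 24.9, 20.2, 21.6, 24.3 and 20.2 FPKM in si-Control replicates 1 to 5 and 21.2, 23.4, 20.7, 19.4 and 17.6 FPKM in si-*Fndc1* replicates 1 to 5. The groups overlapped over most of their range. The means were 22.2 ± 2.25 and 20.5 ± 2.14 FPKM (SD, n = 5 each), a log2 fold change of -0.11 with a 95% interval from -0.28 to 0.05 (adjusted p = 0.338).

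CAGCTG also stood upstream of the genes that fell or were not called. It is shown for *Ak1* (2 of its 4 promoters), *Mb* (the same site in 2 of its 3 promoters) and *Pygm* (2 sites in 1 promoter) in windows of 40 bases of GRCm38.p6, with CAGCTG in capitals.

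Ak1, first promoter, chr2:32621564-32621603, plus strand: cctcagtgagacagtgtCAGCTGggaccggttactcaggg
Ak1, second promoter, chr2:32625193-32625232, plus strand: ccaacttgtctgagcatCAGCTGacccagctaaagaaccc
Mb, chr15:77022898-77022937, minus strand: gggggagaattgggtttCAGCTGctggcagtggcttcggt
Pygm, upstream site, chr19:6384223-6384262, plus strand: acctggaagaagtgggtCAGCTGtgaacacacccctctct
Pygm, site next to the start, chr19:6384368-6384407, plus strand: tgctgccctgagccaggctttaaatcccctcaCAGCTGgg

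The first base of CAGCTG lay at -177 and -227 in the *Ak1* promoters, at -193 and -133 in the *Mb* promoters, and at -168 and -8 in *Pygm*. Within these windows the motif was present upstream of *Ckm*, which rose, of *Ak1*, which fell, and of *Mb* and *Pygm*, which were not called. It was absent from the window of *Ckb*, which rose. Sequence outside the windows was not searched, and a part of the motif in these changes was not tested.

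Of 9 genes that supply creatine or exchange ATP across the mitochondrial membranes, all tested, 7 were higher, 1 lower and 1 not called, at a median log2 fold change of 0.18 and beside 34.4% called over all genes. With the offset 5 of the 9 were called, beside 23.4% over all genes. The gene that fell was *Slc6a8*, the plasma membrane transporter through which muscle takes up creatine. It ran from 26.2 to 37.7 FPKM in si-Control and from 17.05 to 20.5 FPKM in si-*Fndc1*, without overlap. Its means were 30.8 ± 4.44 and 18.5 ± 1.34 FPKM (SD, n = 5 each), and its change of -0.73 on the log2 scale (SE 0.09, adjusted p = 0.000181) was the largest in size of the genes in these energy lists that were tested. With the offset for GC content and length it was -0.61 (adjusted p = 0.00108).

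Creatine synthesis takes 2 steps, the first by the enzyme of *Gatm* and the second by that of *Gamt*. *Gatm* measured 37.6 and 41.2 FPKM in si-Control and si-*Fndc1*, at a log2 fold change of 0.14 (adjusted p = 0.00379), which the offset turned to -0.09 (adjusted p = 0.129). Quantile normalization also took its call away (0.09, limma, adjusted p = 0.0608). *Gamt* measured 19.3 and 22.8 FPKM with overlapping groups, and its log2 fold change of 0.25 (adjusted p = 0.0411) lost its call when any 1 of 6 libraries was left out (si-Control replicates 2 and 3, si-*Fndc1* replicates 1 to 4), at values from 0.23 to 0.26. Without the filter on low genes *Gamt* lost its call too (adjusted p = 0.0751). Both genes are also expressed in organs such as kidney and liver, and a part of the liver transcripts given above in their change was not tested. The ADP/ATP carriers of the inner membrane were higher as well, *Slc25a5* from 133 to 158 FPKM (log2 fold change 0.25, adjusted p = 0.000142) and *Slc25a4*, the carrier of heart and muscle, from 131 to 144 FPKM (0.14, adjusted p = 0.0182). With the offset both lost their call, at 0.07 (adjusted p = 0.0548) and 0.08 (adjusted p = 0.0679). *Slc25a4* also lost it after quantile normalization (0.02) and with a term for replicate number (adjusted p = 0.0509). The outer membrane channel gene *Vdac3* rose by 0.27 on the log2 scale (adjusted p = 0.000775), or by 0.14 with the offset (adjusted p = 0.0217). *Vdac2* rose too, from 26.0 to 30.2 FPKM (0.22, adjusted p = 0.000658). The more abundant *Vdac1*, at 85.7 and 89.8 FPKM in si-Control and si-*Fndc1*, was not called (0.07, adjusted p = 0.112).

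Among the other enzymes of adenylate and nucleotide metabolism, 17 of 19 genes were tested, of which 7 were higher, 1 lower and 9 not called (median log2 fold change 0.10), beside 34.4% called over all genes. With the offset 5 of 16 were called, beside 23.4%. The largest rises were in *Aprt* (0.45, adjusted p = 0.000655), which salvages adenine, and *Nt5c3* (0.43, adjusted p = 0.00561), a nucleotidase. *Adk* (0.39, adjusted p = 0.000255), which returns adenosine to AMP, and *Adss* (0.36, adjusted p = 0.000158), which acts in the remaking of AMP from IMP, followed. *Adss* was at 9.18 and 11.7 FPKM in si-Control and si-*Fndc1*. The related and more abundant *Adssl1*, at 46.4 and 49.4 FPKM, was not called (0.10, adjusted p = 0.279). *Ampd2*, the AMP deaminase form of liver and other non-muscle tissues, was at 6.04 and 4.69 FPKM in si-Control and si-*Fndc1*, at a log2 fold change of -0.35 (adjusted p = 0.0139). With the offset *Nt5c3* and *Ampd2* lost their call, at 0.23 (adjusted p = 0.0851) and -0.18 (adjusted p = 0.149), and *Adss* kept it at 0.17 (adjusted p = 0.00894). *Ampd3* measured 5.30 and 5.32 FPKM, so that *Ampd2* and *Ampd3* each stood above *Ampd1* in level per length in both groups. The mitochondrial adenylate kinase gene *Ak4* was not called, at 0.10 on the log2 scale (adjusted p = 0.423).

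AMP-activated protein kinase senses the AMP that adenylate kinase makes. Of its 9 genes for subunits and upstream kinases, all tested, 1 was higher, 1 lower and 7 not called, with a median log2 fold change of 0.02. These 2 of 9 compare with 34.4% called over all genes, and with the offset 4 of 9 were called, beside 23.4%. Both that were called without it encode regulatory gamma subunits. *Prkag3*, the form of skeletal muscle, fell from 20.5 to 16.1 FPKM (log2 fold change -0.35, adjusted p = 0.000869) and *Prkag1*, the widely expressed form, rose from 30.1 to 34.7 FPKM (0.21, adjusted p = 0.000899), each without overlap. With the offset they stood at -0.20 (adjusted p = 0.0193) and 0.15 (adjusted p = 0.00307).

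Of the 22 genes of glycogen synthesis and breakdown 15 were tested, and 4 were higher, 1 lower and 10 not called (median log2 fold change -0.03), a share near the 34.4% called over all genes. With the offset 2 of 15 were called, beside 23.4%. *Ugp2*, which makes UDP-glucose, went from 29.6 to 40.2 FPKM (log2 fold change 0.45, adjusted p = 6.08e-05), *Gyg*, the primer of glycogen, from 20.3 to 27.0 FPKM (0.42, adjusted p = 0.00225), and *Gbe1*, the branching enzyme, had a log2 fold change of 0.27 (adjusted p = 0.00386). With the offset they stood at 0.18 (adjusted p = 0.0369), 0.26 (adjusted p = 0.0451) and 0.13 (adjusted p = 0.121). *Gys1*, the synthase itself, was not called, at 26.1 and 22.7 FPKM (-0.19, adjusted p = 0.327). It stood at -0.05 with the offset, and between -0.28 and -0.11 when 1 library was left out, with the smallest sizes without si-*Fndc1* replicate 3 (-0.12) or 4 (-0.11). Among the genes of breakdown, *Gaa*, the lysosomal glucosidase, fell by 0.22 on the log2 scale (adjusted p = 0.00129), and the offset took it to 0.03 (adjusted p = 0.51). The phosphorylase of brain, *Pygb*, was at 11.2 and 10.4 FPKM (-0.10, adjusted p = 0.0736), and *Phka1*, a regulatory subunit of phosphorylase kinase, at 4.48 and 4.37 FPKM (-0.03, adjusted p = 0.782). *Pygl*, the phosphorylase of liver, and *Phkg1*, the catalytic subunit of phosphorylase kinase in muscle, were below the level tested, with mean levels of 0.0169 and 0.0725 FPKM and of 0.0499 and 0.0428 FPKM in si-Control and si-*Fndc1*.

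**Figure D4:**
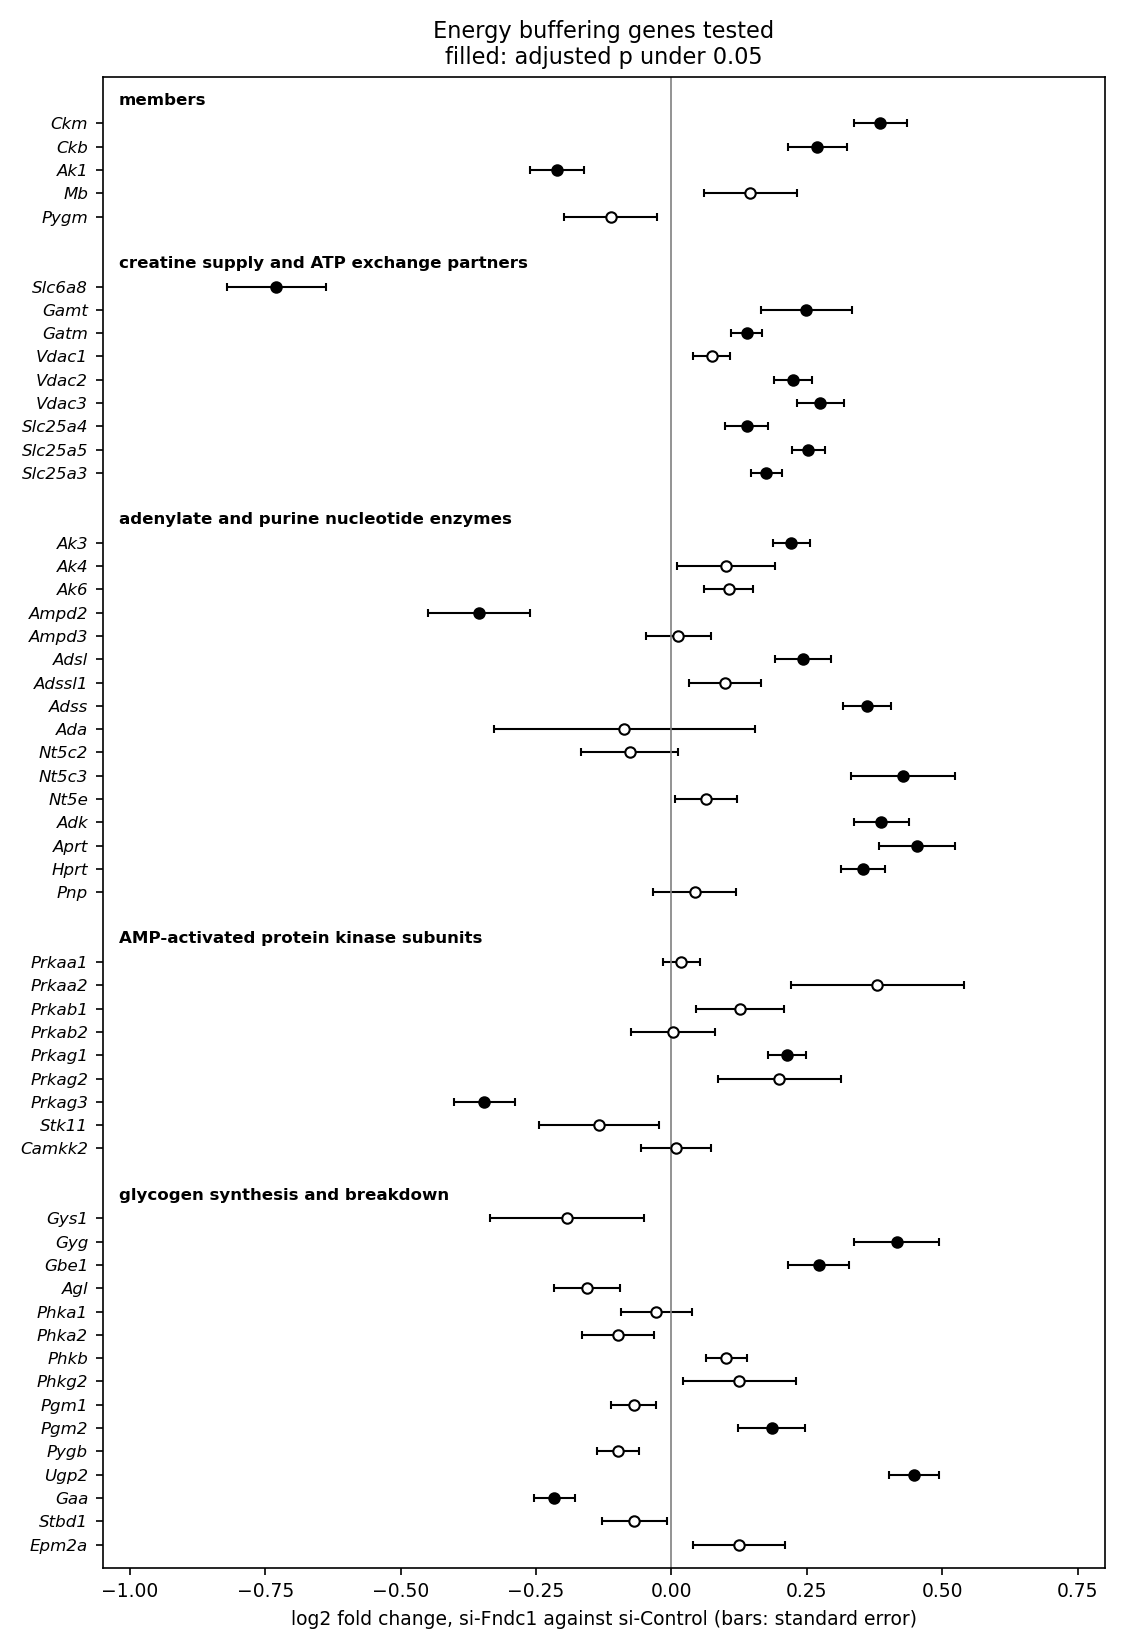
Log2 fold change of si-Fndc1 against si-Control (horizontal axis) with its standard error (bars) for the 5 tested members and tested genes of 4 lists of energy metabolism. Filled points passed an adjusted p under 0.05. Slc6a8, at -0.73, lies farthest to the left, while Ckm and Ckb lie at 0.39 and 0.27.

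The genes whose levels ran most like each member over the 10 libraries were found by Pearson correlation of log2(CPM + 1). Such values are descriptions, since the libraries share the contrast. For *Ckm* they were *Pigk* (r = 0.98), *Rnf11* (0.97) and *Epm2aip1* (0.97), and after subtraction of the group means these were 0.86, 0.77 and 0.76. For *Ckb* they were the branching enzyme gene *Gbe1* (0.96), the DNA helicase subunit gene *Mcm4* (0.96) and *Pmpcb* (0.96), for a mitochondrial processing peptidase, with 0.85, 0.86 and 0.82 within groups. For *Ak1* they were *Itpripl2* (0.94), *Cyc1* (0.94), a subunit of respiratory complex III, and *Gm37164* (0.94), with 0.82, 0.80 and 0.80 within groups. For *Mb* they were *Rnf4* (0.96), *Tceanc* (0.93) and *Nmt2* (0.93), with 0.95, 0.91 and 0.91 within groups. For *Pygm* they were *Cs* (0.97), which encodes citrate synthase, *Cand1* (0.95) and *Unc45b* (0.95), a chaperone of myosin, with 0.97, 0.95 and 0.95 within groups.

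*Ckm* and *Ckb* themselves had r = 0.91 over the 10 libraries and 0.57 after subtraction of the group means. *Pygm*, which was not called, followed both kinases more closely within the groups (0.69 with *Ckm* and 0.68 with *Ckb*) than across all 10 libraries (-0.14 and -0.01). *Ckm* and *Ak1* had r = -0.86 over all libraries and -0.44 within groups. All these values rest on 10 points that share library depth and composition.

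Over 20 alternatives the same 3 members were called. *Ckm* ranged from 0.32 to 0.58, *Ckb* from 0.24 to 0.46 and *Ak1* from -0.26 to -0.16 on the log2 scale, and the highest adjusted p-values were 0.00262, 0.00976 and 0.0358. *Mb* was higher and *Pygm* lower in each of them without a call, at 0.07 to 0.18 and -0.17 to -0.04.

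**Figure D5:**
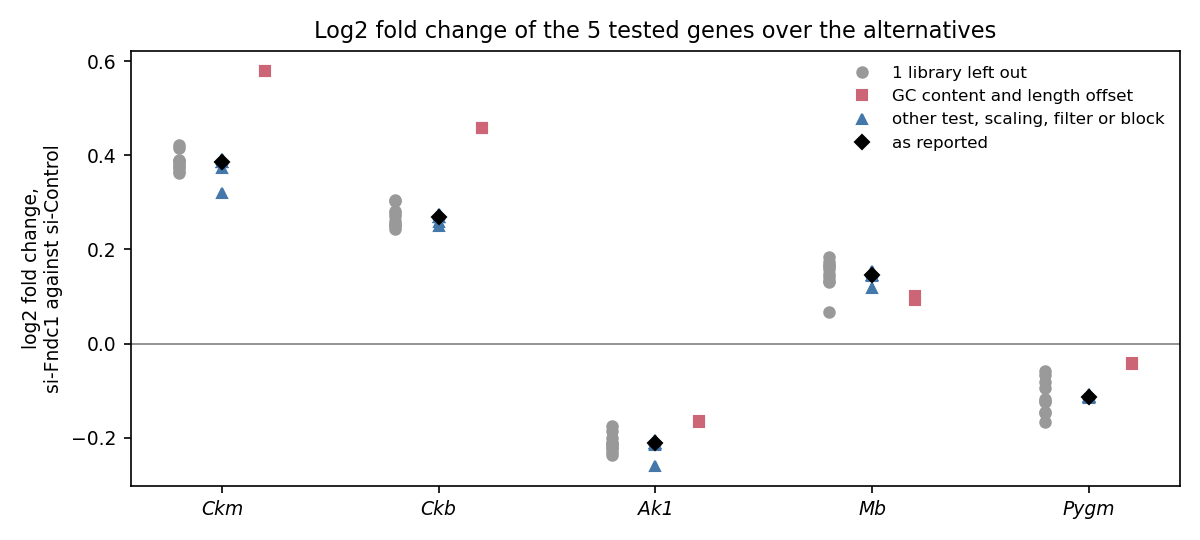
Log2 fold change of si-Fndc1 against si-Control (vertical axis) of the 5 tested members as reported and under 20 alternatives, with leave-one-out fits in grey, fits with the offset for GC content and length as red squares and the others as blue triangles. Ckm and Ckb stay above 0 and Ak1 below 0, and the offset gives the highest values of Ckm and Ckb, 0.58 and 0.46.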

How the data were processed

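Poly(A) RNA-seq libraries of C2C12 cells, 5 si-Control and 5 si-*Fndc1*, were grouped by their labels. The authors deposited 1 table with a raw read count and an FPKM value per gene and library, in which no count is listed as 0.0001 FPKM. Every value column had a sample (0 without). The paper names TopHat, mm10, htseq-count and 4 libraries, the series description names STAR and mm9, and the submitters' processing notes name GRCm39, cutadapt 1.9 and FastQC. Which of these made the table, how FPKM were computed and whether counting used the strand is not given in the sources used here. Gene positions are printed as the table lists them.

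The 13548 genes that averaged 0.5 FPKM or more were tested as counts with edgeR 4.0.16 (quasi-likelihood, TMM) in R 4.3.3, with Benjamini-Hochberg adjustment over all tested genes. This test gave every adjusted p-value except where another is named. Standard errors are the log2 fold change divided by the square root of F. The 95% intervals apply a normal quantile to them, so they are narrower than the F test would give. Alternatives were DESeq2 1.42.0 (the paper's tool), its size factors, other filters, limma 3.58.1 on log2(FPKM + 1), a replicate term, an offset for GC content and length (splines of 5 degrees of freedom per library, 82.6% of tested genes) and each library left out. FPKM levels were compared by exact permutation tests in Python 3.11.15 with scipy 1.17.1. The methods were tested on simulated data. No library was a near copy of another, since chi-square per degree of freedom within groups was 37.8 to 71.8 in 20 pairs over 14222 genes.

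The members and gene lists were chosen with earlier results of these data known. Named genes are the 8 members, *Fndc1*, up to 4 called genes with the largest change per energy list plus 14 fixed ones, the 4 most abundant genes per cell type list, and the 3 genes most correlated with each tested member. *Adssl1*, *Vdac1*, *Vdac2*, *Cdk1*, *Snap25*, *Rbfox3*, *Apol6* and the *Ckb* pseudogenes were named after their values were seen. Some genes that this rule would name are not reported here.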

Additional observations from a re-analysis of the deposited data

Results flagged for a closer look

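In 9 of 130 groups of 5 libraries that were checked, the highest or lowest library stood apart from the other 4 by more than Dixon's 95% critical value of 0.71 for the gap as a share of the range. Chance alone gives such a gap in about 1 of 20 groups.

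Both flags within the members came from si-*Fndc1* replicate 2. *Ckmt2* was at 0.170 FPKM there and at 0 to 0.0404 FPKM in the other 4 libraries, and the mitochondrial share of creatine kinase was 0.155% against 0 to 0.0404%. These rest on 21 counts.

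Among the other genes of energy metabolism, *Slc25a5* was at 165 FPKM in si-*Fndc1* replicate 5 and at 155 to 156 FPKM in the other 4. *Gyg* was at 32.1 FPKM in si-*Fndc1* replicate 1 and at 25.3 to 26.1 FPKM in the others. *Adk* was at 2.85 FPKM in si-Control replicate 5 and at 3.17 to 3.26 FPKM in the others.

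Among the cell type markers, *Plk1* was at 4.80 FPKM in si-Control replicate 2 and at 4.14 to 4.29 FPKM in the others. *Alas2* was at 0.0473 FPKM in the same library against at most 0.0103 FPKM, and *Hbb-bs* at 0.0154 FPKM against no count. *Nppa* was at 0.0677 FPKM in si-Control replicate 1 and without a count in the other 4.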

How the results depend on the processing

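The offset for GC content and length, run on 11185 genes, lowered the genes called from 4663 to 2617 (4244 in these genes without it, an alternative added after seeing the data) and, with the replicate block, to 1758. It changed the genes called in the lists for creatine supply (8 to 5), adenylate and nucleotide enzymes (8 to 5), AMP-activated protein kinase (2 to 4), glycogen (5 to 2) and brain (0 to 1). With the offset alone and with the block it turned *Gatm* to -0.086 and -0.087, *Gaa* to 0.028 in both, *Pygb* to 0.011 and 0.012, *Tnnc1* to -0.0448 and -0.0452, and *Des* to 0.097 in both. The cause was not tested. Quantile normalization turned *Acta1* to -0.12 and *Tnnc1* to -0.035. Leaving out 1 library turned uncalled genes across 0, with *Ampd3* at -0.0165 to 0.0576 and *Phka1* at -0.0665 to 0.00304.

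The replicate block (exact sign flips of same-numbered pairs, which cannot go below p = 0.0625) left the difference between groups in the muscle share at 1.36 points and that in the summed creatine kinase level at 23.6 FPKM, both with an exact permutation p of 0.0625. The log2 ratios of *Ckm* to *Ak1* and of *Ckb* to *Pygm*, added after seeing the data, moved by less than 1 SD in every alternative run. Same-numbered libraries had correlations of -0.05 to 0.05 after subtraction of the group means. These values cannot show whether same-numbered libraries shared a culture or a preparation. With the block in edgeR 3572 genes and the same 3 members were called. Leaving out 1 library gave 4016 to 4626 genes called, a muscle share difference of 0.982 to 1.71 points, and a mitochondrial share difference of -0.102 to -0.0628 points. At 0 to 21 counts per library, depth limits *Ckmt1* and *Ckmt2*. *Ckmt2* could not be fitted under settings other than no filter, because it lies below the filter, as does *Ampd1*. *Ckmt1*, without a count in any library, could not be fitted under any setting.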

Other observations

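Markers of other cell types were read in the same fit. Of the 8 proliferating cell markers, all tested, *Ccna2* (log2 fold change 0.44, adjusted p = 0.000498) and *Cdk1* (0.41, adjusted p = 0.0137) were higher and 6 were not called, with edgeR's quasi-likelihood test. Over all tested genes 34.4% were called. The most abundant were *Top2a* (5.84 and 5.65 FPKM in si-Control and si-*Fndc1*), *Ccna2* (4.00 and 5.42), *Plk1* (4.33 and 4.03) and *Mki67* (4.33 and 4.02).

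The most abundant hepatocyte markers were *Alb* (1.06 and 44.3 FPKM in si-Control and si-*Fndc1*), *Apoa2* (0.351 and 30.6), *Apoa1* (0.239 and 18.5) and *Ahsg* (0.1 and 7.94), and for each of these every si-*Fndc1* library was above every si-Control library. *Pygl*, the liver form of glycogen phosphorylase, ran from 0.0138 to 0.139 FPKM in si-*Fndc1* and reached at most 0.038 FPKM in si-Control.

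Of 6 adipocyte, 6 erythroid, 8 brain and 6 heart markers, 0, 1, 1 and 2 were tested and 0 were called, beside 34.4% over all tested genes. *Adipoq* had 0 counts, and *Fabp4*, *Cidec* and *Adrb3* were under 0.1 FPKM in every library. *Hba-a1* was at 1.01 and 1.35 FPKM and *Hba-a2* at 0.293 and 0.475 FPKM in si-Control and si-*Fndc1*, with *Hbb-bs* and *Alas2* lower. Summed heart markers were at 3.25 to 4.2 FPKM in si-Control and 2.7 to 3.67 FPKM in si-*Fndc1*, with *Myh6* at 1.80 and 1.36 FPKM, *Nppb* at 1.59 and 1.57 FPKM, and *Tnni3* and *Nppa* lower. *Syn1* was at 7.19 and 7.32 FPKM, with *Mbp* and *Gfap* lower.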
